A study of Mus musculus with 5 samples.

Results

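MAP kinase cascade genes encode the successive kinases that carry signals from the cell surface and from stress sensors to the nucleus. A MAP4K activates a MAP3K, the MAP3K phosphorylates a MAP2K, the MAP2K phosphorylates a MAP kinase (MAPK), and some MAPKs phosphorylate a further kinase, a MAPKAPK. These layers are called tiers here. In the seminiferous epithelium the pathway is known for its part in spermatogonial proliferation, cell junctions and the meiotic divisions. The set held 46 of the 21779 protein-coding genes placed on the mouse chromosomes, chosen by symbol: 5 MAP4K, 18 MAP3K, 7 MAP2K, 13 MAPK and 3 MAPKAPK genes. The family was proposed when peak values of these libraries were already known, so counts and fold enrichments at its genes are a description and no test was run on them.

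Binding of the germ-cell zinc finger protein ZFP541 was measured by ChIP-seq, in which an antibody pulls down cross-linked chromatin and the recovered DNA is sequenced. The cells were pachytene and diplotene spermatocytes enriched by sedimentation (STA-PUT) from testes of adult C57BL/6 mice. There was 1 ZFP541 ChIP library from Zfp541-/- cells, and there were 2 ZFP541 ChIP libraries and 2 input libraries from wild-type (WT) cells. The sources used here do not describe the knockout allele or say whether the WT replicates came from separate mice, the inputs were not analysed here, and peak lists give no marker levels by which to check the cell type. The peak lists held 256 peaks in the knockout and 8236 and 10371 in WT replicates 1 and 2. The weakest peak had a −log10 p of 4.47 in the knockout list, against 2.71 and 2.54 in those of WT replicates 1 and 2. The lists therefore reach down to unlike levels, and a peak as weak as the weakest WT peaks is absent from the knockout list. Read depth is unknown from such lists, so a gene without a peak is not shown to be unbound. Part of any gap between the genotypes could come from depth or from these unlike levels, which was not tested. At Zfp541 itself the knockout library had 0 peaks, while the WT replicates had peaks of up to 18.6-fold and 22.2-fold; whether the allele alters the DNA there is not known from these sources. Overlapping peaks of the WT replicates were joined into 5457 regions, and the 132 that met a knockout peak were removed. The remaining 5325 are called ZFP541 regions, and a gene was called when such a region touched its body or lay within 1 kb of either end.

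A ZFP541 region was found at 23 of the 46 cascade genes (50%), against 23.9% of all protein-coding genes. Each of the 23 had exactly 1 region. Replicate 1 had a peak with no knockout peak on it at 26 of the 46 genes (56.5%), against 27.8% of all genes. Replicate 2 had one at 28 (60.9%), against 32.6%. The 23 genes without a region were 8 with a peak in 1 WT replicate only and 15 with no WT peak. Fold enrichment over the caller's background, a ratio the authors' peak caller gave, ran from 2.86 to 17.9 in replicate 1 and from 2.69 to 19.9 in replicate 2 over the 23 regions. Their medians were 5.71 and 7.05, beside 5.36 and 6.04 over all 5325 regions. The replicate 2 value was the higher one at 16 of the 23, so a fold is best read within its own list. At 17 of the 23 (73.9%) the fold was above the median peak of its list in both replicates, beside 62.6% of all 5325 regions.

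**Figure D1:**
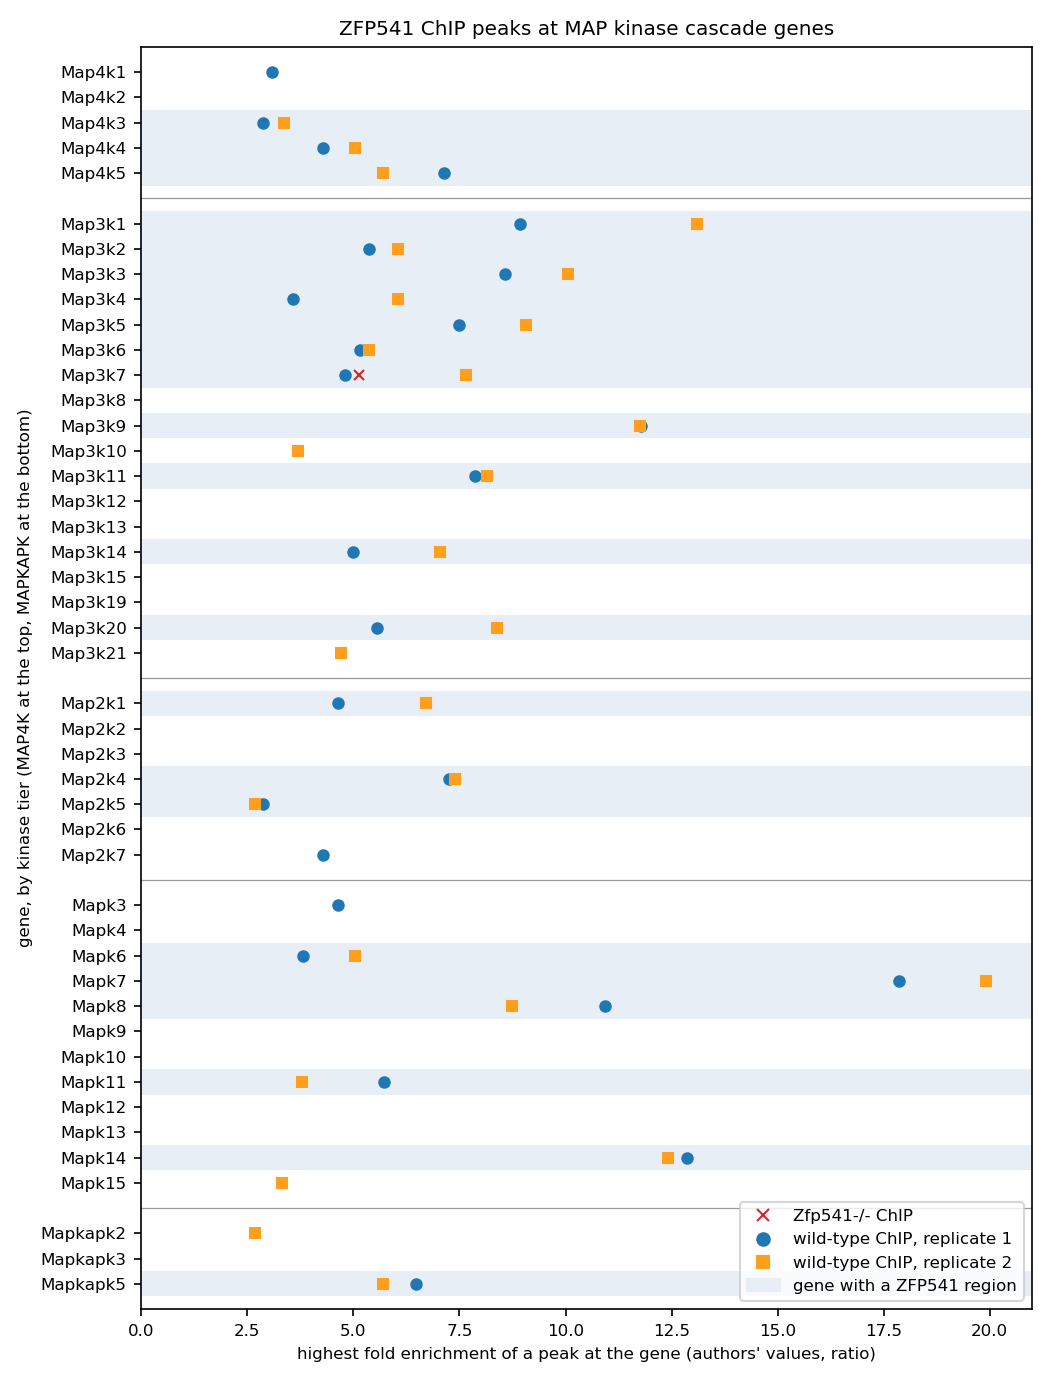
Highest fold enrichment (a ratio, linear axis) of any peak at 45 of the 46 genes, by tier, in the knockout library (cross) and in WT replicates 1 (circle) and 2 (square); shaded rows are the 23 genes with a ZFP541 region. Mapk7 stands to the right of all others at 17.9 and 19.9, and the only knockout peak is at Map3k7.

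The knockout library had a peak at 1 of the 46 cascade genes, against 48 of the 21779 protein-coding genes (0.22%). This peak lay in Map3k7, which encodes TAK1, the MAP3K of the TGF-beta and interleukin-1 pathways, on chr4:31987633-31987856, with its summit 23640 bp downstream of the annotated start. Its fold was 5.13 in the knockout library, and neither WT library had a peak there. The ZFP541 region of Map3k7 was a separate one that covered the start, with no knockout peak and folds of 4.80 and 7.66 in the WT replicates. No cascade gene owed its status to the removal of knockout peaks: with such regions kept, 0 genes were gained and the count stayed at 23.

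The strongest peaks of the family were at Mapk7, Mapk14 and Map3k9. Mapk7 encodes ERK5, the MAP kinase activated by MEK5. Its region, chr11:61493660-61494803, had folds of 17.9 and 19.9 in replicates 1 and 2, at the 99.6th and 99.8th percentile of all peaks of each list. Both values were above the values of every other cascade gene in either replicate, the next highest being 13.1. Mapk14 encodes p38 alpha, the most widely expressed p38 kinase, and its region (chr17:28690861-28692485) had folds of 12.9 and 12.4. Map3k9 encodes the mixed lineage kinase MLK1, and its region (chr12:81780236-81781441) had 11.8 and 11.7. The order of Mapk14 and Map3k9 was the same in both replicates, but Map3k1, at 8.93 and 13.1, was below both in replicate 1 and above both in replicate 2.

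Promoters of these genes are shown because the peaks cover them, and that of Mapk13, a p38 gene next to Mapk14 with no peak in any library, is set beside them; Mapk13 was picked after its values were seen. Each run reads 5′ to 3′ on the strand of the gene, from 250 bases before to 50 bases after the annotated start (RefSeq, GRCm38.p6, the assembly of mm10). Capitals mark matches to the GC box GGGCGG, the binding motif of Sp factors, and to CCAAT, on either strand (CCGCCC and ATTGG on the other); the matches do not overlap each other. They lie at chr11:61494217-61494516 on the minus strand (Mapk7), chr17:28691092-28691391 on the plus strand (Mapk14), chr12:81781121-81781420 on the minus strand (Map3k9) and chr17:28769067-28769366 on the plus strand (Mapk13).
Mapk7: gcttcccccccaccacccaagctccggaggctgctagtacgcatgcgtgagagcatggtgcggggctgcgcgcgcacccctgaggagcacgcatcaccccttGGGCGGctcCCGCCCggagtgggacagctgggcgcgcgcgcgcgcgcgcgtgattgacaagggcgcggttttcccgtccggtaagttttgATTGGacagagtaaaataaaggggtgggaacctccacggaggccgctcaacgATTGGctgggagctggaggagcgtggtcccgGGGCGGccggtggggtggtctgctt
Mapk14: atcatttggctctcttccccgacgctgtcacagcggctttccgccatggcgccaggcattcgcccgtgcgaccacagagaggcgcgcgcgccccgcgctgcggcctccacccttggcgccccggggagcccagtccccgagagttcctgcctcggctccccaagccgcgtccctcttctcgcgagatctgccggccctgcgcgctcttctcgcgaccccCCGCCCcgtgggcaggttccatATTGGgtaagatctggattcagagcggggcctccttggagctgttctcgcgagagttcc
Map3k9: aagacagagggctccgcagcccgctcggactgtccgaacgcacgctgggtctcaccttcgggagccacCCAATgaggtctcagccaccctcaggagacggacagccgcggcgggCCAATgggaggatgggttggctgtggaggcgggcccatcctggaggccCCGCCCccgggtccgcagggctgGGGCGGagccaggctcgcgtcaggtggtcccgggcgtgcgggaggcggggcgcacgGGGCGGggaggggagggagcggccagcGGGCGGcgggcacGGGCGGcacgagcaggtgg
Mapk13: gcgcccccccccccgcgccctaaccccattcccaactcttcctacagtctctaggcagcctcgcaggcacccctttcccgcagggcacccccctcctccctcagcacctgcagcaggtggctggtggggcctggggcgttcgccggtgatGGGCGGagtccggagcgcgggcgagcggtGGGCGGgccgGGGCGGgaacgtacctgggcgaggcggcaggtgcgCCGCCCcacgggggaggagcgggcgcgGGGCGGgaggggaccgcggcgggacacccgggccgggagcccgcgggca

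The Mapk7 promoter held 3 GC boxes and 2 CCAAT matches, and 31 CpG dinucleotides. Its replicate 1 summit fell on base 136 of the printed run and its replicate 2 summit on base 101. Bases 134 to 152 are an unbroken alternation of g and c, 19 bases long. A run at least that long was present in 3 of 17492 promoters, or 0.0172%, 2 of which had a ZFP541 region; this feature was noticed in the printed sequence and not searched for beforehand. The Map3k9 summits fell on bases 283 and 220, on either side of the start, and its promoter held 5 GC boxes and 2 CCAAT matches. The Mapk14 summits lay beyond the printed window, 218 bp and 125 bp downstream of the start, and this promoter held 1 GC box and 1 CCAAT match. Mapk13, without a peak, held 5 GC boxes, no CCAAT match and 34 CpGs, against 33 in Mapk14. Both neighbours were rich in CpG, and the one with more GC boxes had no peak. This is 1 pair, picked after its values were seen, and whether GC boxes or CpGs go with a peak was not tested.

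By tier, 3 of 5 MAP4K genes (60%), 11 of 18 MAP3K genes (61.1%), 3 of 7 MAP2K genes (42.9%), 5 of 13 MAPK genes (38.5%) and 1 of 3 MAPKAPK genes (33.3%) had a region, against 23.9% of all genes. With tiers this small, 1 gene moves a share by many points, and no tier was tested against another. The order also depended on the peak threshold. At a −log10 q of at least 5, 15 genes kept a region (32.6%), against 13.7% of all genes: 1 MAP4K, 9 MAP3K, 1 MAP2K, 3 MAPK and 1 MAPKAPK gene. With the minimum raised to 10, 9 genes kept one (19.6%), against 7.89% of all genes. These were Map3k1, Map3k3, Map3k5, Map3k9, Map3k11, Map2k4, Mapk7, Mapk8 and Mapk14, so 5 of the 9 were MAP3K genes and none was a MAP4K or MAPKAPK gene.

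**Figure D2:**
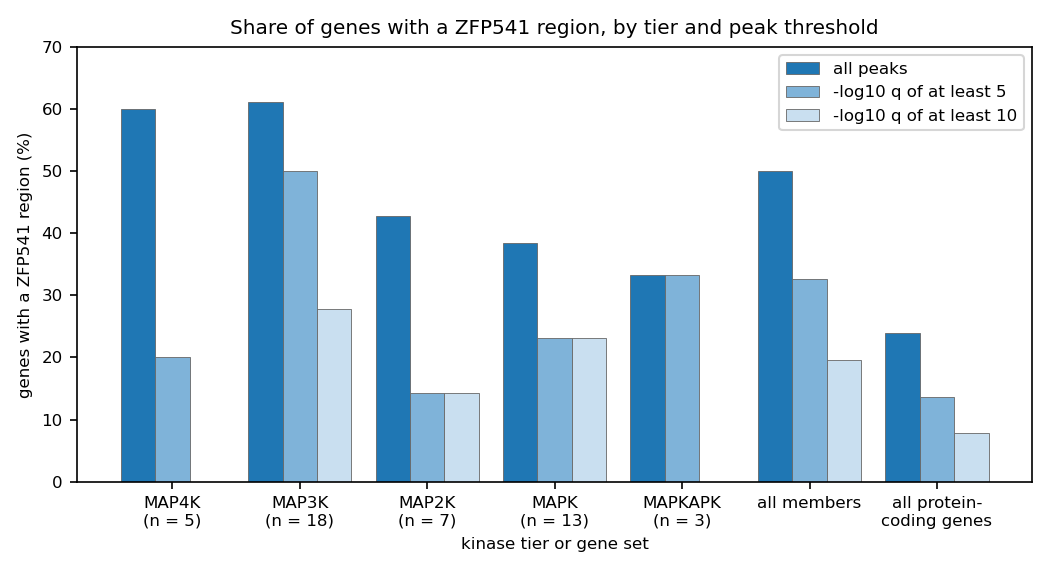
Share of genes (percent, from 0) with a ZFP541 region in each kinase tier, in all 46 cascade genes and in all 21779 protein-coding genes, with all peaks and with 2 stricter minimums of −log10 q. At the minimum of 5 the MAP3K bar is the only tier bar that reaches 50%, and at 10 the MAP4K and MAPKAPK bars are at 0.

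MAP4K kinases link receptors and small GTPases to MAP3Ks. Map4k5 had the highest folds of the tier, 7.14 and 5.71, at a region it shares with the end of Atl1 (chr12:69891931-69893314). Map4k4, a kinase upstream of JNK, had 4.28 and 5.04. Map4k3 had 2.86 and 3.36, with −log10 q values of 0.437 and 1.48, so that its replicate 1 peak had a q-value above 0.05. Map4k1, the blood cell kinase HPK1, had a peak in replicate 1 only, at 3.08 and 18717 bp downstream of the start. Map4k2 had none.

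MAP3K kinases receive stress, cytokine and growth factor inputs and choose which MAP2K is activated. All 4 MEKK genes (Map3k1 to Map3k4) had a region, against 23.9% of all genes. At a −log10 q of at least 5 Map3k4 lost its region, and at 10 Map3k2 did too. Map3k1 had folds of 8.93 and 13.1 over the longest region of the family, 3348 bp (chr13:111807206-111810553). Map3k3 had 8.57 and 10.1 and Map3k2 had 5.36 and 6.04; their products MEKK3 and MEKK2 activate MEK5. Map3k4, which in mouse embryos is needed for testis determination, had 3.57 and 6.04. Each of these 4 was higher in replicate 2 than in replicate 1.

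Of the ASK kinases, which respond to oxidative stress, Map3k5 (ASK1) had 7.50 and 9.06 and Map3k6 (ASK2) had 5.15 and 5.37, while Map3k15 on the X chromosome had no peak. Among 7 mixed lineage and related kinases, Map3k9, Map3k11 and Map3k20 had regions. Map3k11 encodes MLK3 and had 7.86 and 8.15, and Map3k20 encodes ZAK, the sensor of stalled ribosomes, with 5.55 and 8.39. Map3k10 and Map3k21 had peaks in replicate 2 only, at highest folds of 3.69 and 4.70, and Map3k12 and Map3k13 had none. Outside these groups, Map3k14 encodes NIK, the kinase of the non-canonical NF-kappa-B pathway, and had 5.0 and 7.05. Map3k8 and Map3k19 had no peak.

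MAP2K kinases are the dual-specificity kinases that activate MAPKs. Map2k4 (MKK4), which activates JNK and p38 kinases, had the highest folds of the tier, 7.26 and 7.38 (chr11:65787327-65788562). Map2k1 (MEK1) had 4.63 and 6.71, while Map2k2, its close relative MEK2, had no peak in any library. Map2k5 (MEK5) had the weakest region of the family, 2.86 and 2.69, with −log10 q values of 0.437 and 0.314. Map2k7, the other JNK activator, had a peak of 4.29 in replicate 1 only, with its summit 194 bp upstream of the start. The p38 activators Map2k3 and Map2k6 had none.

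Among MAPK genes, Mapk7 and Mapk14 were followed by Mapk8, which encodes JNK1, with 10.9 and 8.74 (chr14:33446467-33447707). The other JNK genes, Mapk9 and Mapk10, had no peak. Of the p38 genes, which lie in 2 neighbouring pairs, 1 of each pair had a region: Mapk14 but not Mapk13 on chromosome 17, and Mapk11 (p38 beta), at 5.71 and 3.78, but not Mapk12 on chromosome 15. Mapk3 (ERK1) had a peak of 4.64 in replicate 1 only. Of the atypical MAP kinases, Mapk6 (ERK3) had 3.82 and 5.04, Mapk15 had 3.32 in replicate 2 only, and Mapk4 had none. Mapkapk5, whose product MK5 binds ERK3, had 6.47 and 5.71; Mapkapk2 had 2.69 in replicate 2 only and Mapkapk3 had none.

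The edge of the rule is not an edge in fold. Map2k5 and Map4k3 counted because their weak peaks overlapped, whereas Map3k21 (4.70, −log10 q 4.41) and Mapk3 (4.64, −log10 q 4.20) did not, since each had peaks in 1 replicate only.

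Regions of the cascade genes lay at transcription starts. Of all 46 genes, 37 had a start in the promoter table, and 20 of these (54.1%) had a region within 1 kb of one, against 21.7% of all genes with a start there. All 20 regions covered the start itself, a share that was not counted over all regions near a start. The median width was 1033 bp over the 23 regions of cascade genes and 1061 bp over all ZFP541 regions. Replicate 1 summits lay downstream of it in 12 and upstream in 8, at a median distance of 195 bp, beside 69.9% downstream and a median of 177 bp for the replicate 1 summits of the 3595 regions within 1 kb of any start. Replicate 2 summits lay downstream in 13 and upstream in 7, at a median of 178 bp, and the replicates put the summit on different sides of the start in 5 genes (Map3k1, Map3k3, Map3k9, Map2k5 and Mapkapk5). Summits of the replicates were at most 250 bp apart in 19 of the 23 regions, which was not counted over all regions either. Map3k11 was the exception among the 21 regions whose gene had a start in the table: its replicate 1 summit lay 6975 bp downstream of the start (chr19:5695355-5697319). Map4k4 and Map3k2 had no start in the table; their replicate 1 summits were 83 bp and 121 bp from a gene end.

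**Figure D3:**
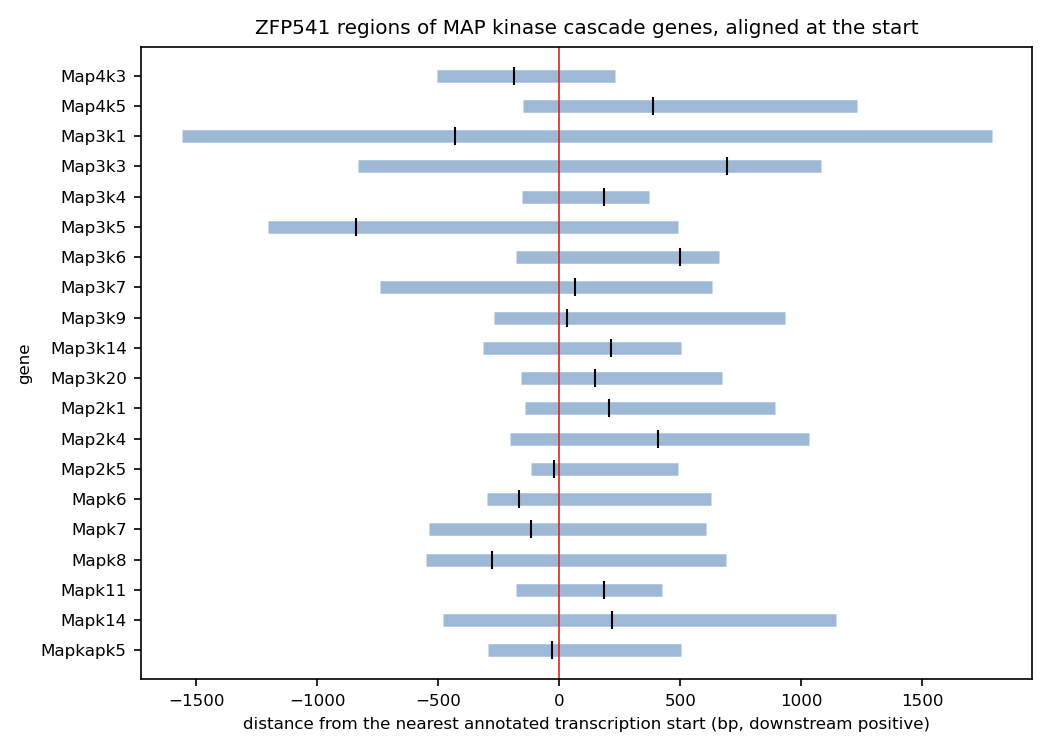
ZFP541 regions (bars) and replicate 1 summits (ticks) of 20 cascade genes, as distance in bp from the nearest annotated start (line at 0, downstream positive). Every bar crosses the start, and the Map3k1 bar is the longest at 3348 bp.

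Counted by gene ends instead, 19 of 46 genes (41.3%) had a region within 1 kb of an end, against 21% of all genes. The 4 others were Map3k11 and 3 genes whose replicate 1 summit sat near a start inside the annotated gene: Map3k1 (8843 bp from the nearer end), Map3k6 (3338 bp) and Map2k5 (3759 bp). From that internal start the summits were 433 bp, 499 bp and 21 bp away in replicate 1 and 206 bp, 412 bp and 200 bp away in replicate 2. Of the 23 regions, 2 also lay within 1 kb of an end of another protein-coding gene, Atl1 at Map4k5 and Slc26a8 at Mapk14. A further 6 lay within 1 kb of an end of a noncoding gene only, and 15 had neither. The same classes were not counted over all ZFP541 regions, so these counts are not shown to be particular to cascade genes.

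Over all genes the share called rose with gene length. Among the cascade genes it did not rise steadily, although those with a region had a median length of 69456 bp, against 21629 bp without. Cascade genes had a median length of 45905 bp, beside 17217 bp for all protein-coding genes, and 28 of the 46 were among the longest genes (over 31329 bp) when all genes were split by length into 3 equal parts. Of these 28 long genes, 17 (60.7%) had a region, against 35.9% of all genes of that length. In the middle range of lengths it was 4 of 14 (28.6%), against 22.3%, and among the shortest genes (under 8803 bp) 2 of 4, against 13.5%. How much of the count length accounts for was not tested.

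Promoters of the 20 genes with a region at a start had a median of 31.5 CpG dinucleotides in 300 bases, and those of the 17 without had 18. Over all genes in the promoter table these medians were 28 and 8. The groups of cascade genes overlapped, from 12 to 55 CpGs with a region and from 0 to 34 without. When promoters with a CpG observed over expected ratio of at least 0.6 and a GC content of at least 50% were called CpG-rich, a division added after the counts were seen, 18 of 30 CpG-rich cascade promoters (60%) had a region, against 40.7% of all CpG-rich promoters. Of the 7 others, 2 had one (Map3k6 and Map3k20), against 5.71%. The 12 CpG-rich promoters without a region within 1 kb of a start included Map2k2, Map2k3, Mapk9 and Mapk13. Map3k11, whose region lay inside the gene, was also among them. A GC box was present in 15 of the 20 (75%) and in 10 of the 17 (58.8%). Over all genes in the promoter table, with and without a region within 1 kb of a start, the shares were 75.2% and 38.3%. Shares in brackets below are over these same groups of all genes. CCAAT was in 6 and 4 (36.2% and 39.8%), and the MYB motif AACGG in 4 and 1 (24.2% and 17.8%). The ETS motif CCGGAAG was in 1 and 2 (16.3% and 10.7%), and the E-box CACGTG in 0 and 2 (12.3% and 6.68%). The NRF1 motif GCGCATGCG was in 1 and 3 (4.19% and 1.91%), and the cAMP response element TGACGTCA in 0 and 1 (3.5% and 2.02%). For CCAAT (30% and 23.5% of the cascade promoters) and the ETS, E-box, NRF1 and cAMP motifs, the cascade shares ran opposite to those over all genes. The counts were at most 6 for CCAAT and at most 3 for the other motifs named. They were not tested. The YY1 motif AAGATGGCG was in neither group (2.74% and 1.72%). Both strands were searched; a match is only a match of letters.

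**Figure D4:**
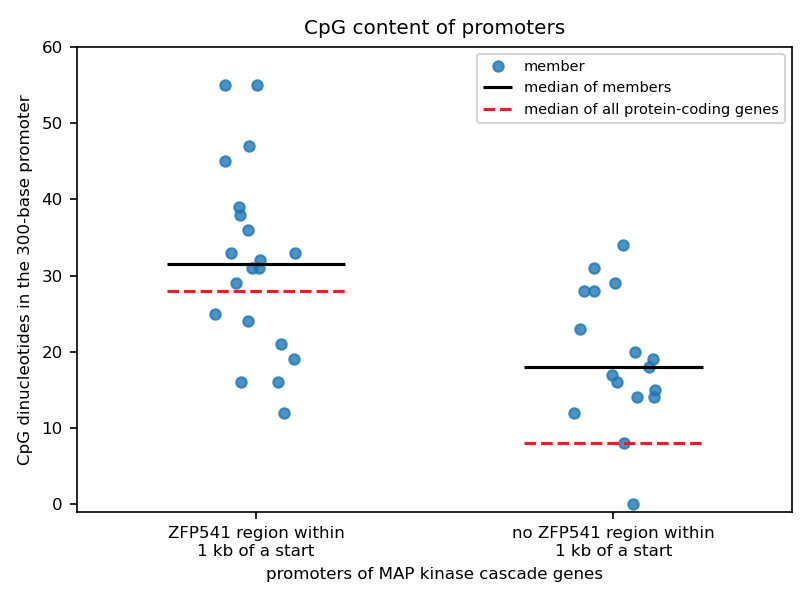
CpG dinucleotides in the 300-base promoter of the 20 cascade genes with a ZFP541 region within 1 kb of a start and of the 17 without (points, spread sideways for legibility), with the medians of both groups (solid, 31.5 and 18) and of all protein-coding genes called the same way (dashed, 28 and 8). The 2 groups of points overlap between 12 and 34.

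Other genes of the pathway were listed by their role, but with earlier results of these data known. A region was found at 56 of these 88 (63.6%), against 23.9% of all genes. This share is a description only and was not split by gene length or promoter CpG content. Among GTPases, exchange factors and adaptors upstream of the cascade it was 16 of 19, led by the adaptor Grb2 (12.1 and 14.1, with a summit 8614 bp from the start), the GTPase Rac1 (8.94 and 18.2) and Rras2 (9.21 and 9.91). Scaffolds, which hold cascade kinases together, had 8 of 9, led by Arrb2 (9.88 and 8.39), the JNK scaffold Mapk8ip1 (8.21 and 6.04) and Arrb1 (7.04 and 6.64). Cascade kinases with other names had 7 of 13, among them Taok3 (5.67 and 14.1) and Mink1 (7.09 and 8.06).

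Inhibitors of Ras signalling had 5 of 8, led by Spred1 (9.87 and 12.1), Spry2 (10.0 and 10.4) and Spry1 (8.94 and 9.36). Phosphatases that inactivate MAPKs had 7 of 13, led by Dusp2 (9.18 and 10.7, at a region that also lies at Astl), Dusp8 (6.79 and 6.38) and Dusp7 (5.23 and 5.96). Transcription factors downstream had 11 of 18, led by Elk4, a partner of SRF, at 16.1 and 15.8, then Atf2 (13.2 and 5.04) and Mef2a (6.47 and 6.38). Kinases phosphorylated by MAPKs had 2 of 8 (25%), near the 23.9% of all genes: Rps6ka5 (6.43 and 8.06) and Rps6ka1 (6.07 and 5.71). Among these 88 genes only Elk4 was above 15 in both replicates, and neither value reached those of Mapk7.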

How the data were processed

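Peak lists of 3 ChIP libraries were used; each holds 1 library's peaks. MACS2 2.2.6, Bowtie2 2.3.5, cutadapt 2.6, deepTools 3.5.0, Picard and SAMtools 1.10 are named, with mm10, per the submitters' processing notes; the sources used here give no settings, controls or thresholds. The deposited lists give per peak a fold enrichment (ratio), −log10 p, −log10 q, a score equal to 10 times −log10 q without decimals, and the summit. These are the authors' own values with no replicate error, used only to describe, rank or filter peaks within a list. A q-value above 0.05 is present at 29 peaks of the knockout and at 1580 and 2349 of the WT replicates, per the deposited lists.

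Peaks sharing at least 1 bp were joined as stated in the text; the summit and fold of a region are those of its strongest peak in each replicate. Gene positions were those of RefSeq on GRCm38.p6, which is mm10, without 108 entries that lie before 3 Mb on chromosomes that begin with a gap; all 46 members and 88 pathway genes matched. For composition, the first listed start of each gene was used. All members with a region are named, and up to 3 called genes per pathway list, by mean percentile rank of fold; 2 genes are not reported here. Members and lists were chosen with earlier results of these data known. Python 3.11.15, numpy 2.4.6, pandas 2.3.3 and matplotlib 3.10.9 served for all steps, and joining was tested on simulated intervals. Intervals are not given, because the depth behind a peak is unknown.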

Additional observations from a re-analysis of the deposited data

How the results depend on the processing

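The count of 23 genes was unchanged, gene by gene, with windows of 500 bp or 2 kb, with summits in place of any overlap, and with knockout peaks kept. With 1 WT replicate left out at a time, 26 to 28 genes had a peak (21 to 23 at a gene end), with 3 to 4 MAP4K, 11 to 13 MAP3K, 3 to 4 MAP2K, 6 to 7 MAPK and 1 to 2 MAPKAPK genes. Of all genes, 27.8% to 32.6% then had one (23.7% to 27.8% at a gene end). At a −log10 q of at least 5, 8 genes were lost, leaving 15 (12 at a gene end), with 1 MAP4K, 1 MAP2K and 3 MAPK genes. The share of all genes fell to 13.7% (11.8% at a gene end). At a −log10 q of at least 10, 14 were lost, leaving 9 (7 at a gene end), with 0 MAP4K, 5 MAP3K, 1 MAP2K, 3 MAPK and 0 MAPKAPK genes. That share fell to 7.89% (6.78% at a gene end). A reciprocal overlap of 50% lost 5 genes (Map4k3, Map4k4, Map2k5, Mapk6 and Mapkapk5), leaving 39.1% of the members, against 17.5% of all genes, with 1 MAP4K and 0 MAPKAPK genes. Without regions shared with another coding gene end, 45.7% remained, against 18.3% of all genes. Counting only regions within 1 kb of a start, chosen after seeing the data, left 20 genes, among them 9 MAP3K genes. No paired analysis was possible because the knockout has 1 library and no test was fitted. Unknown depth limits every missing peak.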
